A study of Mus musculus with 16 samples.

Results

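The 33 genes described here are markers and working parts of monocytes and macrophages, from Fc receptors and integrins to lysosomal enzymes. They were taken by gene symbol from the platform annotation, and 29 of the 33 had a probe among the 25697 on the array. Cd68, Csf1r, Mpeg1 and Ptafr had no probe under that symbol or the same gene identifier, and their expression was not analysed here. RNA came from the whole colon of male C57Bl/6J mice, and their age and the dose and length of treatment were not stated. The 3 groups were untreated controls (4 arrays), mice given dextran sulfate sodium (DSS, 6 arrays) and mice given DSS with methylthioadenosine (MTA; the group is written DSS + MTA, 6 arrays). DSS damages the colonic epithelium and is a standard way to model colitis, and methylthioadenosine is a sulfur-containing nucleoside of the polyamine and methionine salvage pathway. There was no group given methylthioadenosine alone, and where the samples came from separate animals is not stated, so the p-values measure the spread between these samples.

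The gut holds one of the body's large macrophage populations. Blood monocytes enter the lamina propria along chemokine gradients, mature there, take up microbes and dying cells and digest them in lysosomes. In injury, more monocytes and neutrophils arrive. Fc gamma receptors bind antibody-coated particles: the activating ones signal through an adaptor with an activation motif (ITAM), whereas Fcgr2b carries an inhibitory motif. In whole tissue, more cells of a type and more RNA per cell cannot be told apart. Several members are also made by neutrophils, dendritic cells or B cells.

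The promoters of the 4 members that passed the test against control are shown because the data bear on these genes most directly. The RefSeq windows are on build GRCm38.p6, run from 250 bases before the start of transcription to 50 after it, and are written 5′ to 3′ on the gene's strand. Fcgr2b is at chr1:170976022-170976321 on the minus strand, Fcgr3 at chr1:171059354-171059653 on the minus strand, Lgmn at chr12:102439043-102439342 on the minus strand and Cd80 at chr16:38458683-38458982 on the plus strand. Capitals mark every match to a searched motif.
Fcgr2b: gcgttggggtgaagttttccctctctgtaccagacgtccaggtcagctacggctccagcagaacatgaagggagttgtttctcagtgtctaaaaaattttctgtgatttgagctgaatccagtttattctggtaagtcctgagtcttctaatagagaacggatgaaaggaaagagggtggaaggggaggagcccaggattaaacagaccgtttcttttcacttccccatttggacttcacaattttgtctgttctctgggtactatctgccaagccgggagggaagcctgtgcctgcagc
Fcgr3: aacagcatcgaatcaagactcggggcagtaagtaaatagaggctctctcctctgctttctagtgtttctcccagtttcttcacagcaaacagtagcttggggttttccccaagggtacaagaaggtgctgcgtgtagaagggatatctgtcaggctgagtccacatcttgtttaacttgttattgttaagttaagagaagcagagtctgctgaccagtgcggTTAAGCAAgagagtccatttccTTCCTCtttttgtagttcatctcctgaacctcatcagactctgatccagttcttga
Lgmn: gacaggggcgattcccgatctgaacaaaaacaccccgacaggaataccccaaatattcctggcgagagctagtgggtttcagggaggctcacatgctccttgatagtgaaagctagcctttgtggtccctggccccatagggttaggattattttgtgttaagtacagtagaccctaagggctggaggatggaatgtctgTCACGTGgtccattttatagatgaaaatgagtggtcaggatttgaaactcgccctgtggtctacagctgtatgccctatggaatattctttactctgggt
Cd80: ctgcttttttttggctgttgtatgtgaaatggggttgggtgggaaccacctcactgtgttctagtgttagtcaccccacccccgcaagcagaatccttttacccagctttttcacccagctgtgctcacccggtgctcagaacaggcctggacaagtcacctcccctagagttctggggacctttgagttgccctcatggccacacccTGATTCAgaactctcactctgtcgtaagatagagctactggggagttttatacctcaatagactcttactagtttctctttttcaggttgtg
The Fcgr3 window, 1 of 2 for that gene, held a C/EBP match and a PU.1 match that began 28 and 6 bases before the start. The Lgmn window, also 1 of 2, held the CLEAR letters bound by lysosomal gene regulators such as TFEB, from 50 bases before the start. The other Lgmn window, not printed, held no match to any searched motif. The Cd80 window held an AP-1 match from 42 bases before the start, and the Fcgr2b window had no match.

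The motifs were searched on both strands, and the matches in the printed windows did not overlap. Windows were found for 26 of the 33 members, 28 windows in all, and shares are set beside all 32851 windows of the table. Among the 26 are Cd68 and Ptafr, which had no probe. GAGGAA, the core letters of PU.1, a regulator of myeloid genes, lay in 46.4% of the members' windows and 28.3% of all windows. It was in the windows of 12 members, Cd68, Itgam, Fcgr1, Fcgr3, Mrc1, Aif1, Laptm5, Cd53, Ctss, Marco, Trem2 and Ptafr. The C/EBP letters TTGCNNAA were in 17.9% against 10.8%, and the AP-1 letters TGANTCA were in 17.9% against 7.81%. Both overlapping Fcgr3 windows count for PU.1 and C/EBP, so their 13 and 5 windows came from 12 and 4 members. The 5 AP-1 windows came from 5 members. An IRF motif was in 7.14% against 3.44%, the CLEAR letters TCACGTG in 3.57% against 3.77%, and an NF-kappaB motif in 0 of 28 windows against 0.411%. These matches describe the letters, and no binding was measured.

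Values are the authors' normalized intensities on a log2 scale, so a difference of 1 is a doubling of intensity. The array medians of the intensities lay between 112.012 and 112.22, correlations between arrays of a group between 0.958 and 0.995, and no pair of arrays was identical. Each gene is given by its probe with the highest mean. The median probe stood at 6.81. Itgam, Itgax, Ccr2, Msr1, C3ar1, C5ar1 and Sirpa had group means below it in all 3 groups. Their probes thus sat in the dimmer part of the array, where residual background, which was not measured, could shrink differences. The epithelial and smooth muscle genes that mark colon were bright, for example Krt20 at 12.8 and Acta2 at 14.8 in the controls. DSS + MTA replicate 2 was the highest of the 6 arrays of its group for 20 of the 29 members, and replicate 6 the lowest for 20. Dixon's outlier criterion, used in a later section, flagged neither for the mean over members. Counts and medians of the members that it moved by over 1.5 times are given with and without it.

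DSS colons held more RNA of a few members, led by 2 Fc gamma receptors and a lysosomal protease. Fcgr2b, the inhibitory receptor, was 3.996-fold higher than in controls, Lgmn (legumain, a lysosomal asparaginyl endopeptidase) 2.93-fold, Fcgr3 (an activating receptor) 2.40-fold and Cd80 (a costimulatory ligand) 1.48-fold. In limma's test with Benjamini-Hochberg adjustment over all 18312 features at 0.05, 4 of the 29 measured members rose (13.8%) and 0 fell. Over all features 4.58% rose, 2.82% fell and 7.40% were called in either direction, so the members' share was above the background. The members were chosen with earlier results of these data known, so that share describes them and is no independent test. The members' median log2 difference was 0.70, against -0.02 over all features, and it ran from -0.17 to 1.998. Of the 29 members, 25 were above 0 and 18 (62.1%) had an unadjusted p under 0.05, against 22.3% of all features. In 11 members every DSS array was above every control array, against 5.75% of all features.

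Leaving out 1 array moved the count of members that rose between 2 and 10. It was 2 without Control replicate 3, when Fcgr2b and Lgmn remained and 4.04% of all features were called, and 10 without DSS + MTA replicate 2, when 9.5% of all features were called. The change in the latter case came through the shared estimate of the spread, since that array is in neither of the groups compared.

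**Figure D1:**
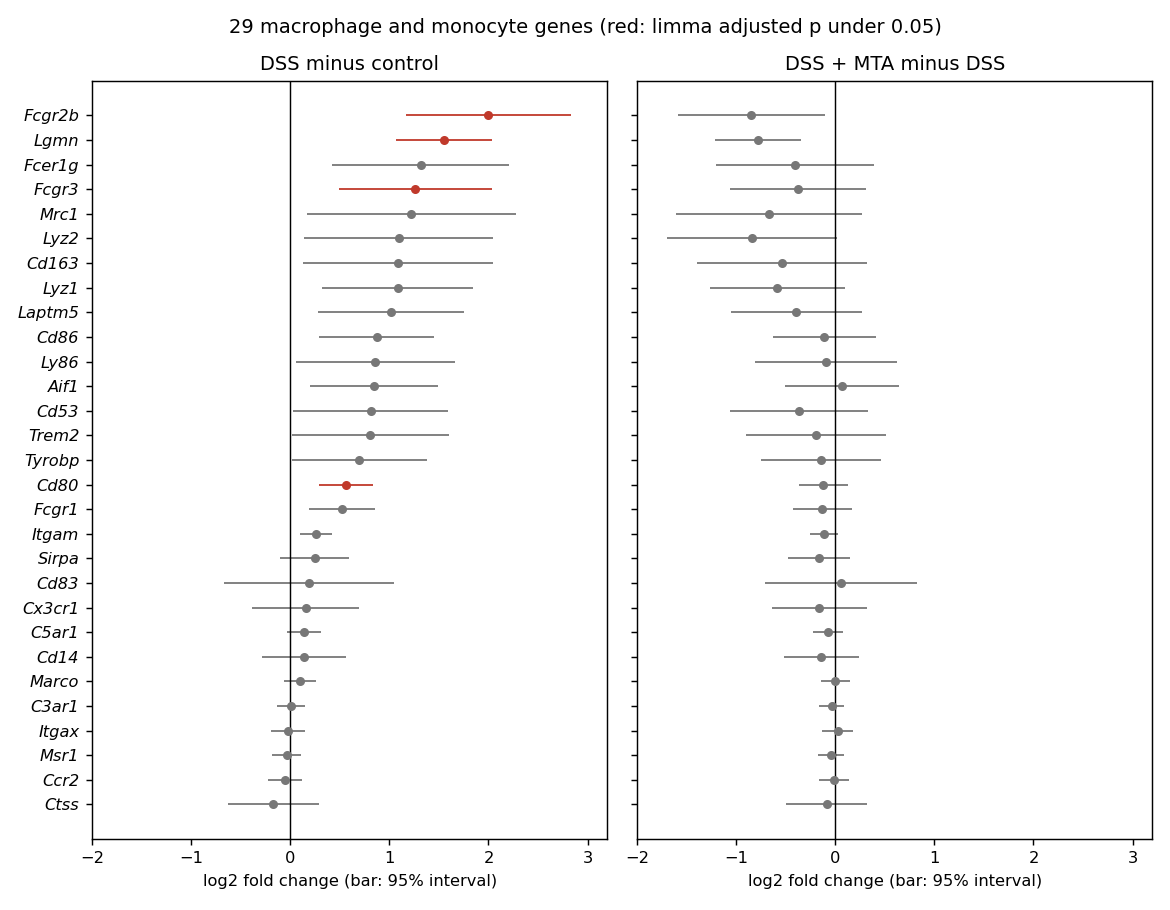
Log2 difference of each measured member in 2 comparisons, DSS against Control and DSS + MTA against DSS, with points for the estimates and bars for 95% intervals from limma (4 Control, 6 DSS and 6 DSS + MTA arrays). Against Control, 25 of 29 points lie above 0 and Fcgr2b is highest at 1.998, while DSS + MTA against DSS has 25 of 29 points below 0.

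Among the Fc receptors, Fcgr2b had log2 intensities of 6.88, 7.48, 7.70 and 7.70 in the control arrays. The lowest, median and highest DSS arrays were at 8.70, 9.40 and 10.12, and those of DSS + MTA at 7.76, 8.24 and 10.07. All DSS and all DSS + MTA arrays were above all controls, while the 2 treated groups overlapped. The log2 difference of DSS from control was 1.998 ± 0.39 (SE), with a limma adjusted p of 0.00612. It kept its call in all 16 fits that left out 1 array. A second Fcgr2b probe differed by 1.36 (adjusted p = 0.00922 over all probes) and another, dimmer one by -0.03.

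Fcgr3 stood at 6.81, 7.11, 7.33 and 7.42 in the controls. Its lowest, median and highest values were 7.62, 8.37 and 9.24 in DSS and 7.26, 7.85 and 9.42 in DSS + MTA. Each DSS array was above each control, and DSS + MTA overlapped both other groups. The difference of DSS from control was 1.26 ± 0.36 (SE; limma adjusted p = 0.0447), a call close to the threshold that was lost in 11 of the 16 fits without 1 array, where the adjusted p reached 0.123. Fcgr1, the high-affinity activating receptor, was at 6.50 ± 0.09 (SD, n = 4) in controls, 7.02 ± 0.27 (SD, n = 6) in DSS and 6.89 ± 0.31 (SD, n = 6) in DSS + MTA. Its DSS arrays did not overlap the controls, and the difference of 0.52 had a limma adjusted p of 0.0548.

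In the RefSeq table Fcgr4 is the 1 protein-coding gene between Fcgr2b and Fcgr3. It encodes another activating Fc gamma receptor and is named here after its values were seen. Its log2 intensity averaged 7.78 in controls, 9.89 in DSS and 9.38 in DSS + MTA, and it rose against control in both DSS (2.10 ± 0.38 SE, limma adjusted p = 0.00375) and DSS + MTA (1.60, limma adjusted p = 0.0403). The receptors are paralogs, and whether a probe of one also binds RNA of another was not tested.

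Both adaptors missed the threshold. Fcer1g, the gamma chain that carries the signal of Fcgr1 and Fcgr3, averaged 9.17 ± 0.69 (SD, n = 4) in controls, 10.49 ± 0.56 (SD, n = 6) in DSS and 10.08 ± 0.83 (SD, n = 6) in DSS + MTA. The DSS arrays were all above the controls, and the difference was 1.32 (limma adjusted p = 0.0686). Tyrobp, which serves Trem2 and related receptors, was at 7.40 ± 0.47 (SD, n = 4), 8.10 ± 0.40 (SD, n = 6) and 7.95 ± 0.67 (SD, n = 6) in the same order. Its difference between DSS and control was 0.70, with an adjusted p of 0.210 in limma. Of 11 measured genes of the ITAM signalling chain, 1 rose and 0 fell in DSS, the adaptor Lcp2 with 0.55 ± 0.13 (SE; limma adjusted p = 0.0204). That 1 call in 11 is near the 4.58% of all features that rose.

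**Figure D2:**
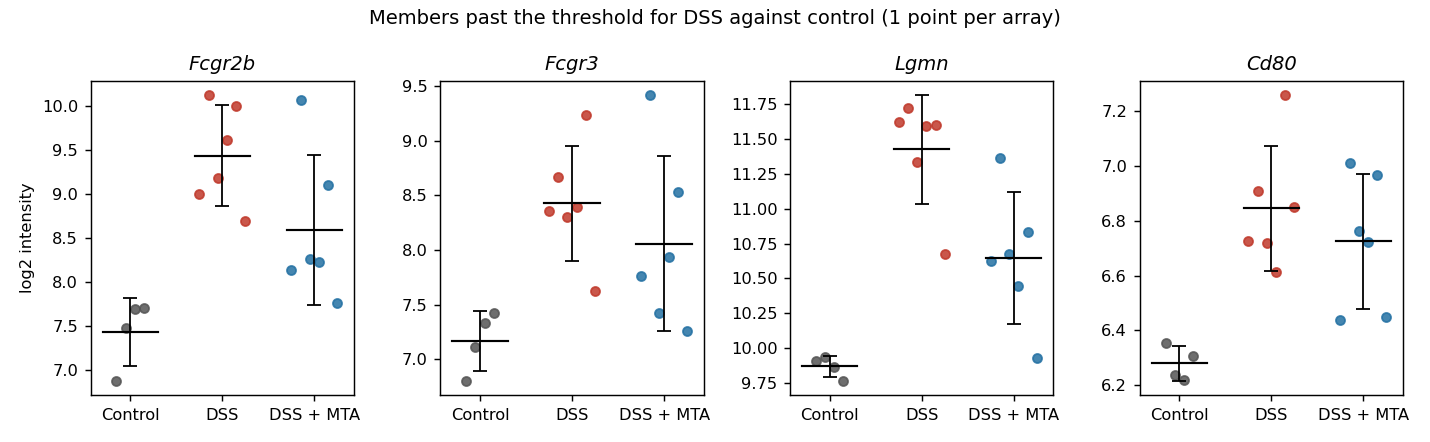
Log2 intensity of Fcgr2b, Fcgr3, Lgmn and Cd80 in every array, with points for arrays, bars for group means and error bars for the SD (4 Control, 6 DSS and 6 DSS + MTA arrays). Each DSS array lies above each control array for all 4 genes, and the DSS + MTA arrays overlap the DSS arrays.

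Lgmn was the member with the smallest p. Its control arrays lay close together at 9.77, 9.87, 9.91 and 9.94. The DSS arrays had a lowest value of 10.67, a median of 11.60 and a highest of 11.72, and the DSS + MTA arrays 9.93, 10.65 and 11.36. DSS and controls did not overlap, and DSS + MTA lay between them and overlapped each, with 1 array within the control range. The difference of DSS from control was 1.55 ± 0.23 (SE; limma adjusted p = 8.24e-04), and its call was kept in all 16 fits without 1 array. Laptm5, a lysosomal membrane protein of blood cells, averaged 11.78 ± 0.55 (SD, n = 4) in controls, 12.79 ± 0.40 (SD, n = 6) in DSS and 12.40 ± 0.74 (SD, n = 6) in DSS + MTA. Its DSS arrays were above all controls, with a difference of 1.02 and a limma adjusted p of 0.0896. Ctss (cathepsin S, which trims the class II invariant chain) was the member furthest below 0, at -0.17 with an adjusted p of 0.705 in limma, and averaged 10.02 ± 0.27 (SD, n = 4), 9.85 ± 0.37 (SD, n = 6) and 9.77 ± 0.39 (SD, n = 6).

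The lysozymes are encoded by the neighbouring genes Lyz2, the form of macrophages and other myeloid cells, and Lyz1, the form of Paneth cells of the small intestine. Lyz2 averaged 10.72 ± 0.79 (SD, n = 4) in controls, 11.81 ± 0.54 (SD, n = 6) in DSS and 10.97 ± 0.91 (SD, n = 6) in DSS + MTA, a DSS difference of 1.09 (limma adjusted p = 0.159). Lyz1 averaged 12.85 ± 0.63 (SD, n = 4), 13.94 ± 0.40 (SD, n = 6) and 13.36 ± 0.74 (SD, n = 6). Its DSS arrays were above the controls by 1.08 (limma adjusted p = 0.0800). The probes of Lyz1 did not share a direction: the other 2 differed by -0.32 and -0.43 between DSS and control, with unadjusted p of 0.328 and 0.390. All 3 Lyz2 probes were above 0, at 1.09, 1.14 and 0.38. Among 7 measured Paneth cell markers 0 rose and 0 fell, the smallest p being that of the defensin Defa20 at -0.14 (limma adjusted p = 0.151). Which lysozyme RNA the Lyz1 probe with the highest mean reads was not tested.

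**Figure D3:**
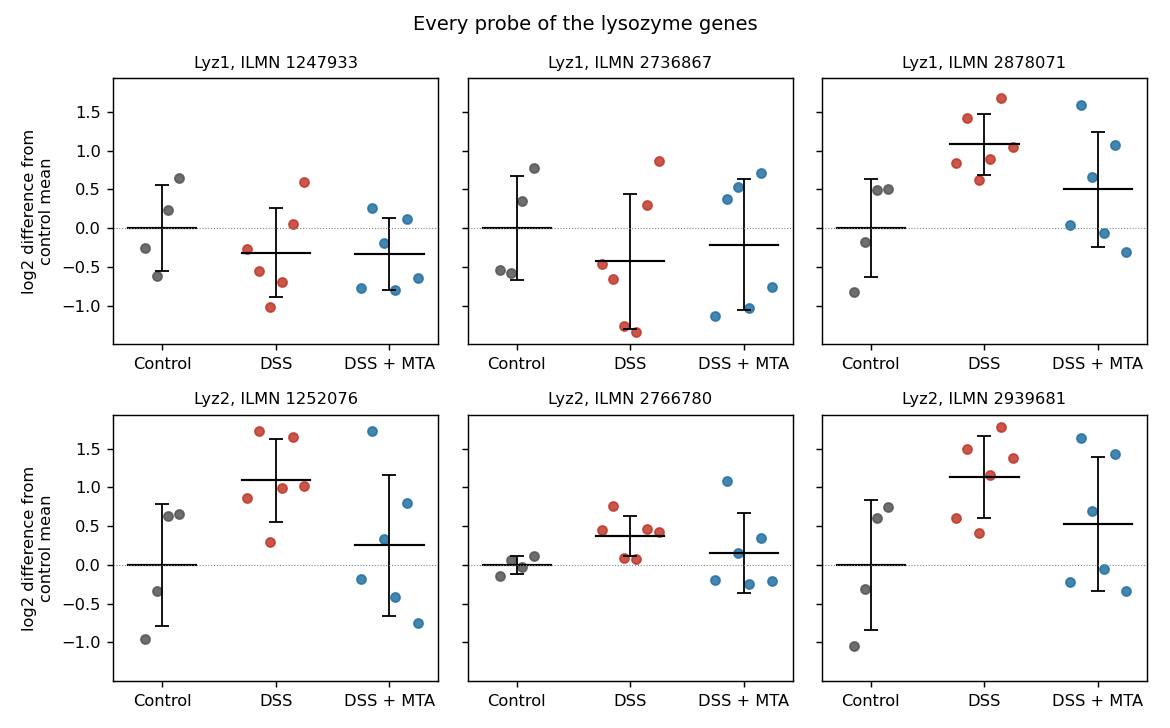
Log2 intensity of the 3 Lyz1 and 3 Lyz2 probes minus each probe's control mean, with 1 point per array, bars for group means and error bars for the SD (4 Control, 6 DSS and 6 DSS + MTA arrays). In DSS, 1 Lyz1 probe averages 1.08 above control while the other 2 average -0.32 and -0.43, and the 3 Lyz2 probes average 1.09, 1.14 and 0.38.

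Of the costimulatory ligands and related surface proteins, Cd80 alone passed the test, though its level was low. Its control arrays were at 6.22, 6.24, 6.31 and 6.36. DSS arrays had a lowest value of 6.61, a median of 6.79 and a highest of 7.26, and DSS + MTA arrays 6.44, 6.74 and 7.01. Both treated groups lay above all controls and overlapped each other. The DSS difference was 0.56 ± 0.13 (SE; limma adjusted p = 0.0141), and the adjusted p was 0.0506 without Control replicate 3. Cd86, the other ligand of Cd28, averaged 7.13 ± 0.33 (SD, n = 4), 7.999 ± 0.33 (SD, n = 6) and 7.89 ± 0.60 (SD, n = 6) in control, DSS and DSS + MTA. Its DSS arrays did not overlap the controls, and the difference was 0.87 with an adjusted p of 0.0635 in limma. Another, dimmer Cd86 probe differed by 0.34 (adjusted p = 0.0434 over all probes), which counts among no call here. Cd83, an activation marker of antigen-presenting cells, averaged 7.62, 7.81 and 7.87, and Sirpa, the receptor for the self signal Cd47, averaged 6.23, 6.48 and 6.32. Their DSS differences of 0.19 and 0.25 were not larger than the spread between arrays (limma adjusted p = 0.841 and 0.413).

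No scavenger, lectin or lipid receptor passed the test, and the group split into 3 receptors about 1 log2 unit above control and 2 near 0. Mrc1, the mannose receptor of tissue macrophages, averaged 8.47 ± 0.55 (SD, n = 4) in controls, 9.69 ± 0.78 (SD, n = 6) in DSS and 9.02 ± 1.01 (SD, n = 6) in DSS + MTA. Cd163, which clears haemoglobin bound to haptoglobin, averaged 7.51 ± 0.58 (SD, n = 4), 8.60 ± 0.65 (SD, n = 6) and 8.06 ± 0.93 (SD, n = 6). Trem2, a lipid-sensing receptor, averaged 6.37 ± 0.33 (SD, n = 4), 7.18 ± 0.60 (SD, n = 6) and 6.99 ± 0.77 (SD, n = 6), and all its DSS arrays were above the controls. The DSS differences were 1.22 for Mrc1 (limma adjusted p = 0.152), 1.09 for Cd163 (0.161) and 0.81 for Trem2 (0.214). The second, dimmer Cd163 probe differed by 0.01. Msr1 averaged 5.76, 5.73 and 5.68, and Marco 6.86, 6.96 and 6.96, with DSS differences of -0.03 and 0.10 (limma adjusted p = 0.826 and 0.497). Both bind modified lipoproteins and bacteria.

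The integrin chains, chemoattractant receptors and chemokine receptors gave small differences. Itgam, the alpha chain of the complement receptor integrin, had DSS arrays all above the controls, with means of 6.00 ± 0.03 (SD, n = 4), 6.26 ± 0.13 (SD, n = 6) and 6.15 ± 0.13 (SD, n = 6). Its DSS difference was 0.26 (limma adjusted p = 0.0532). Its genomic neighbour Itgax, a chain found on dendritic cells and gut macrophages, averaged 6.14, 6.12 and 6.14. Ccr2, the receptor for Ccl2 on monocytes, averaged 5.84, 5.79 and 5.78, and Cx3cr1, the fractalkine receptor of resident gut macrophages, averaged 7.94, 8.09 and 7.93. For the complement peptide receptors the means were 6.12, 6.12 and 6.09 (C3ar1) and 5.84, 5.99 and 5.91 (C5ar1). The 95% intervals of the DSS difference were -0.19 to 0.15 for Itgax, -0.22 to 0.12 for Ccr2, -0.39 to 0.70 for Cx3cr1, -0.13 to 0.15 for C3ar1 and -0.03 to 0.31 for C5ar1. Since all of these but Cx3cr1 were dim, such intervals bound the intensity difference, not the change in RNA.

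The endotoxin co-receptors and the remaining leukocyte proteins did not pass the test. Cd14, which hands endotoxin to its receptor, averaged 10.03 ± 0.46 (SD, n = 4) in controls, 10.16 ± 0.26 (SD, n = 6) in DSS and 10.02 ± 0.30 (SD, n = 6) in DSS + MTA. Ly86, the partner protein of Cd180, averaged 7.91 ± 0.64 (SD, n = 4), 8.76 ± 0.47 (SD, n = 6) and 8.67 ± 0.77 (SD, n = 6). Aif1, an actin-binding protein used as a macrophage marker, averaged 7.77 ± 0.50 (SD, n = 4), 8.61 ± 0.38 (SD, n = 6) and 8.68 ± 0.61 (SD, n = 6). Further, dimmer Aif1 probes differed from control by 0.66 and 0.20 in DSS and by 0.59 and 0.20 in DSS + MTA. Between DSS + MTA and DSS those probes differed by -0.07 and -0.0028. The tetraspanin Cd53 averaged 7.83 ± 0.70 (SD, n = 4), 8.64 ± 0.37 (SD, n = 6) and 8.28 ± 0.75 (SD, n = 6). DSS differences were 0.13 for Cd14 (limma adjusted p = 0.757), 0.86 for Ly86 (0.192), 0.84 for Aif1 (0.108) and 0.81 for Cd53 (0.205).

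The second comparison asked whether MTA given with DSS changed these genes. By limma with Benjamini-Hochberg adjustment 0 of the 29 members passed, and 0.147% of all features were called (27, with 0.0328% higher and 0.115% lower). An unadjusted limma p under 0.05 was found for 2 members (6.9%, Fcgr2b and Lgmn) and for 11.9% of all features. Without DSS + MTA replicate 2 that count was not taken. Of the members, 25 were below 0 and 4 above, Aif1, Cd83, Itgax and Marco. Other probes of Aif1 were below 0. The number of members above 0 was 1, Marco, without DSS + MTA replicate 2, and 7 without DSS + MTA replicate 6. Some marker lists of other cell types, given further on, also lay mostly below 0, and others mostly above. The members' median was -0.14, against 0.01 over all features, and the range was -0.85 to 0.07. The median was -0.27 without DSS + MTA replicate 2, and -0.09 without DSS + MTA replicate 6 or without DSS replicate 5. In 0 members did the groups separate, against 0.715% of features.

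The largest estimated differences, with their 95% intervals, were those of Fcgr2b at -0.85 (-1.59 to -0.10), Lyz2 at -0.84 (-1.69 to 0.01) and Lgmn at -0.78 (-1.21 to -0.34). The limma adjusted p of Lgmn was 0.132 and that of Fcgr2b 0.356. Without DSS + MTA replicate 2, Lgmn fell by 0.92 (limma adjusted p = 0.0314) and was the 1 member called, against 0.846% of all features. Without DSS replicate 6, the DSS array with the lowest Lgmn value, it fell by 0.93 (limma adjusted p = 0.0420), against 0.415% of all features called. Without DSS + MTA replicate 6 limma called 0 of all features. Mrc1 (-0.67), Lyz1 (-0.58) and Cd163 (-0.54) followed, none of which passed.

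Compared with untreated controls, DSS + MTA colons had 0 of 29 members past the threshold in limma's test, when 2.19% of all features were called. An unadjusted p under 0.05 was found for 8 members (27.6%) and for 15.2% of all features. Of the members 23 lay above 0, with a median of 0.44 against -0.01 over all features, and a range of -0.26 to 1.15. Without DSS + MTA replicate 2 the median was 0.27, with 21 members above 0, and without Control replicate 1 it was 0.23, with 20 above 0. The highest was Fcgr2b at 1.15 ± 0.39 (SE; limma adjusted p = 0.148), or 0.86 (limma adjusted p = 0.198) without DSS + MTA replicate 2, followed by Aif1 at 0.91 (0.141), Fcer1g at 0.91 (0.317) and Fcgr3 at 0.89 (0.239). Lgmn was at 0.77 (0.0923) and Cd80 at 0.44 (0.0888). In 2 members, Fcgr2b and Cd80, every DSS + MTA array was above every control, against 2.85% of all features. Leaving out DSS + MTA replicate 6 gave 2 calls, Lgmn and Cd80, against 3.66% of all features, and leaving out DSS replicate 6 gave 1, Lgmn, against 2.19%. The latter, 1 of 29, is near the background. The comparisons share their arrays, so their values are set side by side without an overlap.

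Within a group, the same arrays were high or low for many of the members. The mean over members, each gene taken relative to its control mean, ran from -0.41 to 0.28 in the controls, from 0.45 to 1.06 in DSS and from -0.15 to 1.14 in DSS + MTA. All 6 DSS arrays were above all 4 controls, whereas DSS + MTA spanned the other groups. DSS + MTA replicate 2 was highest of its group for 20 members and had the mean of 1.14, and DSS + MTA replicate 6 was lowest for 20 members. In DSS, replicate 5 was highest for 16 members, and among controls replicate 1 was lowest for 21.

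The members were more spread among DSS + MTA arrays than among DSS arrays. Their median SD was 0.33 in controls, 0.37 in DSS and 0.60 in DSS + MTA, and 24 of 29 had the larger SD in DSS + MTA, against 55.3% of all features. Without DSS + MTA replicate 2 the median SD was 0.36 and the count 14. In that array other marker lists were also above their control mean. The differences were 0.86 for fibroblasts, 0.72 for smooth muscle, 0.66 for neutrophils and 0.18 for T and NK cells. Its fibroblast and smooth muscle means were the highest of its group, next to 0.74 and 0.69 in replicate 5. Other arrays of the group had higher neutrophil and T and NK cell means, up to 0.92 and 0.98. What these cell types contributed to the members' values was not tested.

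**Figure D4:**
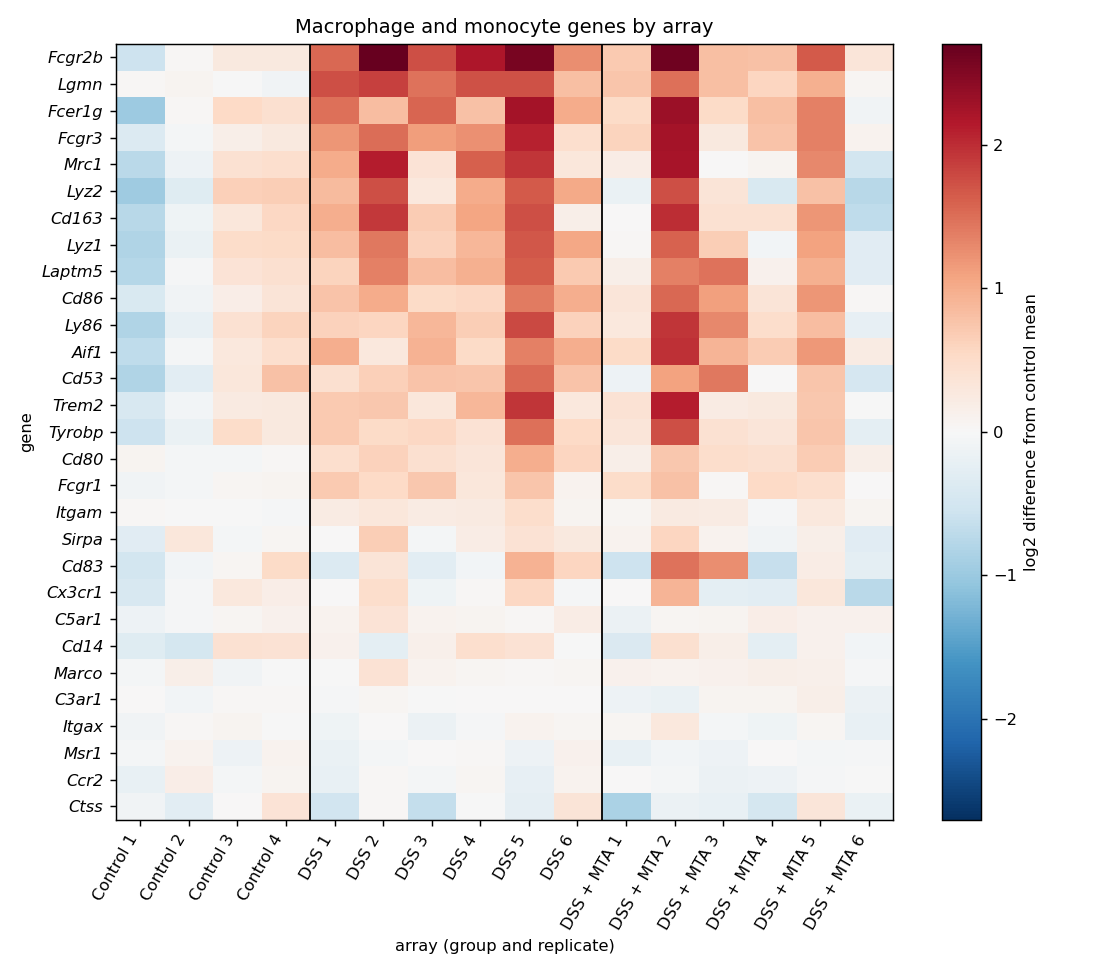
Log2 intensity of each measured member minus its control mean (colour), in the 16 arrays grouped as Control, DSS and DSS + MTA. DSS + MTA replicate 2 is the highest of its group in 20 of 29 rows and replicate 6 the lowest in 20 rows.

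Other genes linked to the same cells and pathways were read from lists chosen with earlier results of these data known. Whole-colon values do not show which cells made these RNAs. Of 52 measured further macrophage and monocyte genes, 17 rose and 0 fell in DSS, with a median log2 difference of 0.49. Over all features 4.58% rose, 2.82% fell and the median was -0.02. The smallest p values were those of Plaur, the urokinase receptor (1.37 ± 0.11 SE, limma adjusted p = 8.23e-06), Cebpb, a myeloid and inflammatory transcription factor (1.79 ± 0.17 SE, limma adjusted p = 2.31e-05), and Lamp2, a lysosomal membrane protein (0.78 ± 0.12 SE, limma adjusted p = 9.03e-04). In DSS + MTA against DSS 2 of the 52 fell, the chitinase-like protein Chil3 (-1.52 ± 0.27 SE, limma adjusted p = 0.0430) and Lamp2 (-0.56 ± 0.10 SE, limma adjusted p = 0.0471). Each of these calls was lost in 12 of 16 fits without 1 array, where the adjusted p reached 0.121 and 0.132. Over all features 0.115% fell in that comparison. Against control, DSS + MTA had 7 of the 52 higher, when 2.19% of all features were called in either direction.

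Among 21 measured ligands and partners of the members 9 rose and 0 fell in DSS, against 4.58% and 2.82% of all features. The monocyte chemoattractants Ccl7 and Ccl2 led with 3.11 ± 0.30 (SE; limma adjusted p = 2.90e-05) and 2.32 ± 0.31 (SE; limma adjusted p = 4.26e-04), while the probe of their receptor Ccr2 was dim in all groups. Icam1, an adhesion ligand of the Itgam integrin, rose by 1.23 ± 0.19 (SE; limma adjusted p = 0.00119). In DSS + MTA against DSS 0 of the 21 passed, Ccl2 being at -1.39 (limma adjusted p = 0.0635). Of 11 genes of the NADPH oxidase and phagosome 2 rose, the actin regulators Wipf1 (0.55) and Arpc1b (0.27), with limma adjusted p of 0.0343 and 0.0355. Of 18 genes shared by blood cells 2 rose, Plek (1.07) and Srgn (0.64), with limma adjusted p of 0.0134 and 0.0377. The shares of these 2 short lists rest on 2 genes each and stand beside the same 4.58% over all features.

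Markers of some other cell types moved in DSS too, set beside 4.58% of all features that rose and 2.82% that fell. Of 18 measured neutrophil markers 10 rose and 0 fell, with a median of 0.82. The 3 with the smallest p were Clec4d (1.79, limma adjusted p = 1.78e-04), the calprotectin subunit S100a8 (3.93, limma adjusted p = 1.81e-04) and the gelatinase Mmp9 (1.53, limma adjusted p = 7.25e-04). The mean of the neutrophil list ran from -0.07 to 0.08 in controls, from 0.90 to 1.64 in DSS and from 0.36 to 0.92 in DSS + MTA. Endothelial markers rose in 5 of 9 cases, led by Eng, Cdh5 and Plvap (1.02, 0.59 and 1.16), and fibroblast markers in 3 of 9, Col3a1, Dcn and Pdgfra (1.27, 1.01 and 0.95). Of 13 mast cell and eosinophil markers 1 rose, the histamine-forming enzyme Hdc (2.40), and of 10 smooth muscle markers 1, Acta2 (0.26). The plasma cell gene Jchain fell by 0.30, the 1 call among 11 B and plasma cell markers. Lists with 1 call are near the shares over all features. Their medians were -0.0052 for mast cells and eosinophils, with 7 of 13 below 0, 0.25 for smooth muscle and -0.10 for B and plasma cells.

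By the same limma test 0 of 13 dendritic cell markers, 0 of 16 T and NK cell markers and 0 of 11 epithelial markers passed in DSS, the smallest p belonging to Zbtb46 (0.34, adjusted p = 0.0860), Gzmb (0.17, adjusted p = 0.174) and Krt20 (0.52, adjusted p = 0.140). The T and NK cell mean ran from -0.14 to 0.10 in controls, from -0.27 to 0.0043 in DSS and from -0.11 to 0.98 in DSS + MTA. The highest of these arrays, DSS + MTA replicate 3, also had the highest B and plasma cell mean of its group, at 0.76, and the highest Laptm5 (13.2) and Cd53 (9.25) levels of its group. In DSS + MTA against DSS no marker of these 9 further cell type lists or of the Paneth cell list passed, the smallest adjusted p being 0.0635 for Emcn (-0.62) and Clec4d (-0.97). Below 0 there were 9 of 9 fibroblast (median -0.75), 8 of 9 endothelial (-0.62), 15 of 18 neutrophil (-0.21) and 7 of 10 smooth muscle markers (-0.05). Above 0 were 14 of 16 T and NK cell (0.17), 9 of 13 dendritic cell (0.11), 9 of 11 B and plasma cell (0.08) and 9 of 11 epithelial markers (0.06). Mast cell and eosinophil markers (7 of 13 above 0) and Paneth cell markers (4 of 7) were mixed. The part of each cell type in the members' values was not tested.

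**Figure D5:**
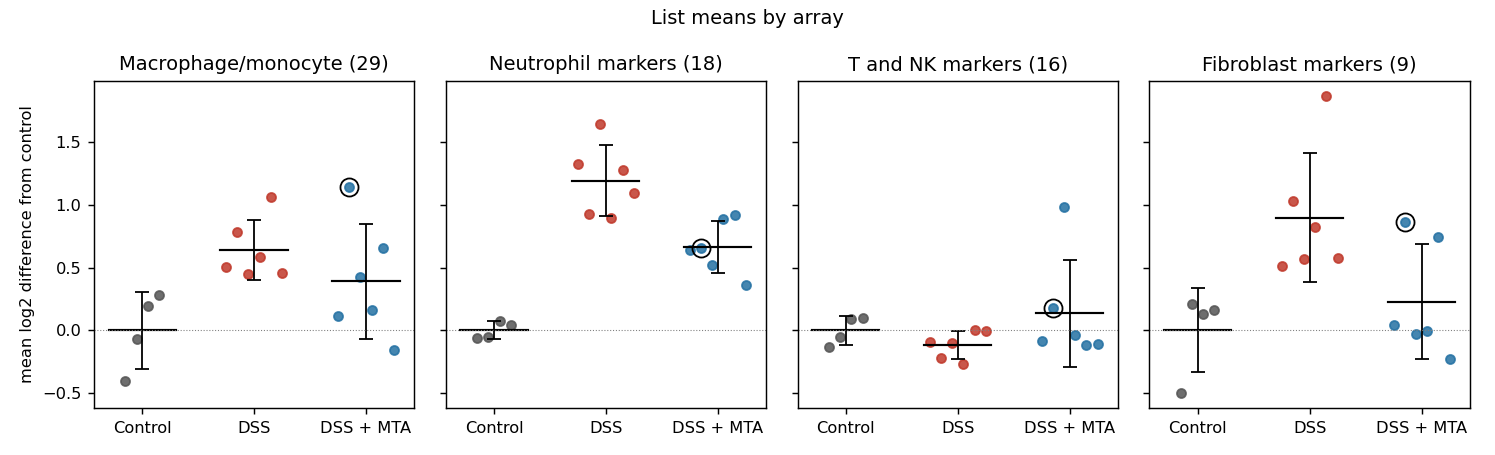
Mean log2 intensity of the macrophage and monocyte genes and of the neutrophil, T and NK cell and fibroblast markers relative to the control mean, with 1 point per array in Control, DSS and DSS + MTA, bars for group means, error bars for the SD and a ring around DSS + MTA replicate 2. The mean of the macrophage and monocyte genes lies between 0.45 and 1.06 in DSS and between -0.15 and 1.14 in DSS + MTA, and the neutrophil mean between 0.90 and 1.64 and between 0.36 and 0.92.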

How the data were processed

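Whole-colon RNA of 16 samples was amplified, biotin-labelled and read on Illumina 1-colour bead arrays, per the labels' protocols. The deposited intensity values are linear and were already normalized between arrays by the authors; the software, background step and normalization method are not stated. Another 32 columns, named by array position, were given to no sample and not used, so no detection p-value or slide was available. Log2 was taken with no further normalization and no filter, and a gene was represented by its probe of highest mean (18312 features, 1719 unnamed probes among those read). Groups came from the sample titles. A limma 3.58.1 model (lmFit, eBayes; R 4.3.3) over all 16 arrays, with Benjamini-Hochberg adjusted p under 0.05, gave all 3 comparisons, and was tested on simulated data. The members and lists were chosen with earlier results of these data known. Every measured member was named; of each other list, up to 3 genes with the smallest p in DSS against Control and up to 2 in DSS + MTA against DSS were named as far as they passed, otherwise the 1 with the smallest p; a few list genes beyond these were named after their values were seen. Deviations of same-numbered arrays were not shared across all pairs (correlations of -0.280 to 0.569, median 0.065, 7 of 14 pairs over 0.1), so the numbers were not used as pairs. Alternatives were filters to the upper 50% or 25% of probes, the mean of a gene's probes, quantile normalization, normexp background with offset 50, trended robust variance, array weights, fits of 2 groups, a replicate block, a term for accession order (8 arrays each) and leaving out each array. Promoter windows came from RefSeq. The number of arrays limits the precision.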

Additional observations from a re-analysis of the deposited data

Results flagged for a closer look

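Within-group outliers were sought with Dixon's criterion in 90 groups (29 members and their mean in 3 groups), and 10 were found, where chance gives about 1 in 20. None of the 10 was for the members' mean. Values are log2 intensities. DSS replicate 5 was far above the rest of its group for Tyrobp (8.89), Cd53 (9.35), Ly86 (9.69) and Trem2 (8.30), and DSS + MTA replicate 2 for Trem2 (8.48). DSS replicate 6 was far below its group for Lgmn (10.7). For Marco, DSS replicate 2 was high (7.24) and DSS + MTA replicate 6 low (6.82). Control replicate 2 was low for C3ar1 (6.04) and DSS + MTA replicate 1 for C5ar1 (5.69); both probes were dim.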

How the results depend on the processing

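The count of members called in DSS against Control was 4. It was 2 of 8 tested with the upper 25% of probes, where fewer genes were tested and 15.9% of all features were called, 9 with array weights, 9 with only the 2 groups compared and 8 with the replicate block, and from 2 to 10 when 1 array was left out. It lay within 1.5 times of 4 under the other settings, where the upper 50% filter gave 6 of 21 tested, 3 of them shared with the 4, and called 14.6% of all features. In DSS + MTA against DSS the count was 0, against 1 with the replicate block (Lgmn, log2 difference -0.78, limma adjusted p = 0.0118) and from 0 to 1 when 1 array was left out. In DSS + MTA against Control it was 0, against 2 with the replicate block (Fcgr2b at 1.21 and Lgmn at 0.91) and from 0 to 2 when 1 array was left out. Counts over all features were 1356, 27 and 401 in these comparisons, 2191, 61 and 622 with array weights, 1741, 247 and 550 with the block, 1650, 0 and 260 with 2 groups, and 1739, 155 and 292 without DSS + MTA replicate 2. The cause of these shifts was not tested. None of the differences of the 4 called members changed sign under any setting; Fcgr3 lost its call with a term for accession order (limma adjusted p = 0.0566), Chil3 with 2 groups (0.160) and Lamp2 under 6 settings, fits for Chil3 and Lamp2 that were added after seeing the data. The block rests on replicate numbers that are not stated to be pairs. Of 16 arrays 4 matched their own number best, which does not settle whether some samples were paired. The background level was not known, and 7 members had group means below the median probe in all 3 groups. Such dim probes limit what a difference near 0 shows.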
